A study of Mus musculus with 6 samples.

Results

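ΔDL is a mutant of KLF3 that cannot hold the corepressor CtBP, and the regions described here are the genomic places where it was recovered by chromatin immunoprecipitation (ChIP) above its matched input DNA. The members are all 12248 peaks of the merged ΔDL list, which holds each region called in both replicate immunoprecipitations. The series also has a merged KLF3 list of 14115 peaks, a merged DBD list of 4955 and a table of all peaks with 22188 regions. No measured value was used to choose among the ΔDL peaks.

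The cells were Klf3-/- murine embryonic fibroblasts (MEFs) of the C57BL/6 strain, so every group lacked endogenous KLF3. They were rescued with an MSCV retrovirus carrying V5-tagged full-length KLF3, V5-tagged ΔDL or V5-tagged DBD, the last being little more than the zinc fingers. In ΔDL the residues Asp-Leu of the CtBP contact motif were replaced by Ala-Ser. Each construct was studied in a stable clone grown from puromycin-selected cells, so a property of the ΔDL clone and a property of the ΔDL protein cannot be told apart. The ΔDL IP (anti-V5) and the ΔDL input were each sequenced in 2 replicates, and the labels do not say whether these came from separate cultures.

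KLF3 belongs to the Krüppel-like factors, which read CACCC boxes and GC-rich relatives of them through zinc fingers at the C-terminus. It acts mainly as a repressor, and its N-terminal domain recruits CtBP, which in turn brings histone-modifying enzymes to chromatin. A nearest-gene catalogue such as the one described here gives each peak the gene with the closest transcription start site (TSS). It therefore records proximity and not regulation, and ChIP peaks give no measure of which genes a cell expresses, so the fibroblast identity could not be checked from these values.

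The words searched throughout were the KLF core ACACCC, its variant CCACCC, the GC-rich form ACGCCC, the GC-box form CCGCCC, and for AP-1 the word TGAGTCA or its reverse complement, each on both strands. The highest ΔDL peaks that held a KLF core in their central 100 bp are shown first. They were chosen for that word, and high peaks without a core, such as those of Rangap1 and Tcf3, were passed over. Each run is 30 bases of the mm9 genome, read 5′ to 3′ on the strand that spells the core, with a core in capitals. The runs of Klhdc8a and Kntc1 each spell a further core that overlaps the marked one and is not marked.
Cttnbp2nl (chr3:104861931-104861960, minus strand): gcagtgagggccACACCCaaaaatctagga
S100a14 (chr3:90329508-90329537, minus strand): tacatcactgccACACCCctactctctcta
A1bg (chr15:60989331-60989360, minus strand): acaactacaaacACACCCaagcgcccctag
Ppp1r10 (chr17:36053843-36053872, minus strand): cgtgatggagaaCCGCCCtcgccgggacac
Klhdc8a (chr1:134184848-134184877, plus strand): cagcatacgcgaACACCCacccctctgccc
Usp31 (chr7:128851074-128851103, minus strand): acacgcagaaccACGCCCtaagccgaggga
Kntc1 (chr5:124199630-124199659, minus strand): tgagcgcggaaaCCGCCCcgccctaaacta
Ech1 (chr7:29610259-29610288, minus strand): ccaccgcggccaCCGCCCtttagcagcgag
The 8 marked cores lay between 1 and 33 bp from the centres of their peaks. The choice of peaks with a core in the central 100 bp set an upper limit to this distance.

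The highest peaks with an AP-1 word and no KLF core are shown for contrast, with the AP-1 word in capitals and on the plus strand.
Plec (chr15:76034674-76034703): gctgggaagacTGAGTCAcctccatcagag
1700023F02Rik (chr10:65816909-65816938): acttcaacaacTGAGTCAcctcctctgtat
S100a2 (chr3:90391007-90391036): ggaaccacgggTGAGTCAccctgccctggg
The central 30 bases of 3 peaks of the lowest 10% by height, those with the highest peak scores there, are shown on the plus strand as examples of the low end.
Isy1 (chr6:87786886-87786915): ccatcaccaggctggtttttattttttaaa
Rpl7l1 (chr17:46936525-46936554): attgcaggccaatctggaaaagaaacactc
Ptp4a1 (chr1:31043820-31043849): tggatccagtttacctgatttgaaaacaat
The GC content of these runs was 33.3% at Isy1 and Ptp4a1 and 43.3% at Rpl7l1, whereas the 8 runs with a KLF core ranged from 50% at S100a14 to 73.3% at Ech1. The 8 runs were chosen for a C-rich word and the 3 low runs were not. The choice of runs therefore set part of this difference.

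The replicate lists behind the merged peaks differed in the number of tags behind their scores. Replicate 1 listed 17206 peaks from 1.77 M tags, the lowest total of the 6 immunoprecipitations, and replicate 2 listed 32624 peaks from 10.2 M tags. The other 4 immunoprecipitations had 5.46 to 18.1 M. These totals are what the worth of 1 tag in the deposited scores implies, and they are not the mapped reads. The study lists more mapped reads for both ΔDL replicates, with a smaller gap between them, and why the tags are fewer was not tested. A replicate 1 peak held 4 to 108 tags with a median of 6, and a replicate 2 peak held 7 to 188 tags with a median of 11. Of the merged peaks, 5227 (42.7%) rested on 4 to 6 tags in replicate 1. The deposited height of a merged peak is the combined tag count of both replicates in 400 bp, scaled to 100 M tags, and carries no replicate error. It ran from 74.0 to 2304 with a median of 199 in ΔDL. The number of tags in both replicates is therefore given beside the heights.

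Most ΔDL peaks lay far from a TSS. Of the 12248 peaks, 6604 (53.9%, 95% Wilson interval 53.0 to 54.8) were intergenic, 4236 (34.6%, 33.7 to 35.4) lay in introns and 1018 (8.31%, 7.84 to 8.81) in promoters, which the annotation takes as the 1000 bp before a TSS and 100 bp after it. The remaining 390 (3.18%) were in exons, untranslated regions, non-coding transcripts or just past gene ends. The median distance to the nearest TSS was 53.7 kb. These intervals cover counting error only. The spread between replicates was wider, since promoters took 7.37% of the replicate 1 peaks and 15.9% of the replicate 2 peaks (11.6% ± 6.05, SD, n = 2). The median distance was 52.9 kb in replicate 1 and 29.6 kb in replicate 2. Both measures moved with the tag totals, whose part in them was not tested.

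The properties of the peaks changed with their height. The merged peaks were divided into 10 height groups of equal size, from group 1 (lowest, median height 113) to group 10 (highest, median height 572). Promoter peaks made up 0.571% of group 1, 3.02% of group 5, 12.4% of group 8 and 32.8% of group 10. The median distance to the TSS fell from 86.0 kb in group 1 to 50.3 kb in group 8 and 8.13 kb in group 10. The change was gradual up to group 7 and steep from group 8 on. Tags in replicate 2 rose along the groups from a median of 8 to 38, and those in replicate 1 only from 6 to 9. The height is the combined count of both, so it followed replicate 2, which had more tags, more closely. Along the tags of each replicate alone only GC content was examined, as given below.

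The KLF core also became more frequent with height. A core stood in the central 100 bp of 2348 peaks (19.2%, 18.5 to 19.9). In windows of the same length 400 to 500 bp away it stood in 12.2%, and in 255837 windows spaced every 10000 bp over mm9 in 10.9%. In group 10 the centre held a core in 62.4% of peaks against 21.4% in the flanks. In group 8 these shares were 23.3% and 13.7%. In groups 1 to 4 the centre held it in 7.2 to 8.0% of peaks, below the flanks, which held it in 8.8 to 11.1%. The signal at the peak centre was therefore present in the higher peaks and not detectable in groups 1 to 4. In the replicate lists the share was 16.4% in replicate 1 and 30.5% in replicate 2 (23.5% ± 9.97, SD, n = 2).

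**Figure D1:**
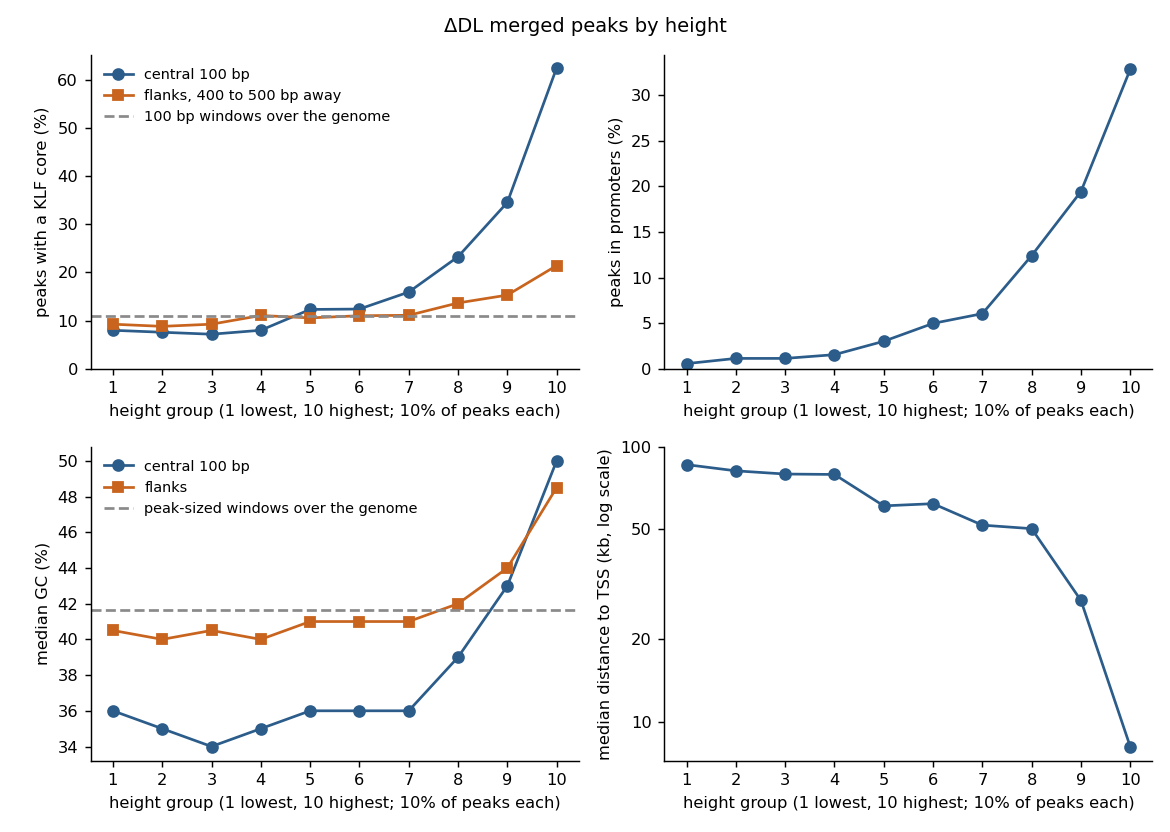
The 10 height groups of ΔDL merged peaks, from lowest to highest, are on each x axis. The panels plot the percent of peaks with a KLF core, the percent in promoters, the median GC percent and the median distance to the TSS in kb on a log scale; all 4 measures change most steeply from group 8 to group 10.

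All 4 forms of the core were found in group 10. CCGCCC, the GC-box form, was in the centre of 282 of its peaks (23.0%, against 7.51% in the flanks). The CACCC-box forms ACACCC and CCACCC were in 252 (20.6%, flanks 5.63%) and 233 peaks (19.0%, flanks 8.41%). ACGCCC was in 202 peaks (16.5%, flanks 3.10%). In the lower 50% of the list by height the 4 forms were in 0.784 to 3.64% of centres. Promoter and non-promoter peaks of group 10 both carried the core, in 77.1% of 402 promoter peaks and 55.3% of 823 others. The flanks beside these promoter peaks also held the core often, at 31.2%, whereas those beside the other peaks of group 10 did at 16.6%.

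Base composition changed along the height groups as well. The median GC content of the 401 bp peak windows was 39.7%, below the 41.6% of the genome windows. It was 37.7 to 38.9% in groups 1 to 7 and 49.4% in group 10. The lower peaks were AT-rich at the centre itself. In the lower 50% by height the mean GC content fell from 40.8% at the outermost 50 bp bin to 33.8% in the bin just past the centre. In group 10 it rose from 48.4% to 50.8% toward the centre. Over all merged peaks the Spearman correlation of GC content was 0.282 with height and 0.23 with tags in replicate 2. With tags in replicate 1 it was -0.0985, so the rise of GC content with height was not seen along the replicate 1 tags. The median GC content was 39.2% in replicate 1 and 43.4% in replicate 2 (41.3% ± 3.0, SD, n = 2).

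**Figure D2:**
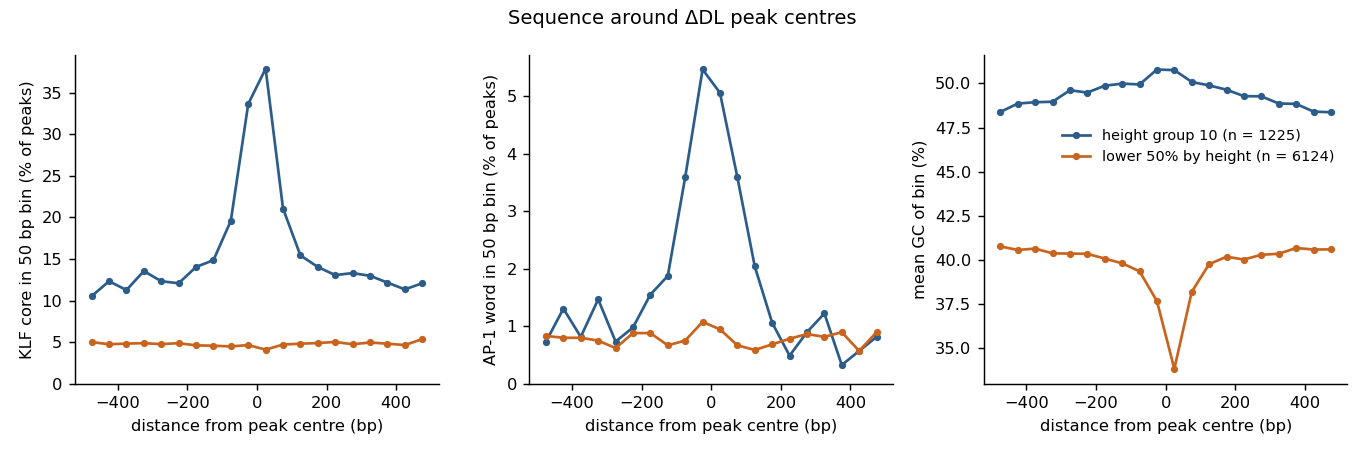
The x axes give the distance from the peak centre in bp, in 50 bp bins, for the 1225 peaks of height group 10 and the 6124 peaks of the lower 50% by height. The KLF core reached 37.9% of group 10 peaks in the bin past the centre and stayed between 4.1 and 5.4% in the lower peaks, the AP-1 word reached 5.5% of group 10 peaks, and mean GC content dipped to 33.8% in the lower peaks.

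AP-1 is the dimer of FOS and JUN proteins that marks many active enhancers of fibroblasts. Its word was in the centre of 466 ΔDL peaks (3.80%, 3.48 to 4.16), against 1.7% of the flanks and 1.51% of the genome windows. In the replicate lists the share was 3.35% in replicate 1 and 6.61% in replicate 2 (4.98% ± 2.30, SD, n = 2). The word was commonest in high peaks outside promoters, at 15.1% of the 823 non-promoter peaks of group 10 against 2.4% of their flanks. Only 0.5% of the 402 promoter peaks of that group held it. Of the peaks with the word, 193 also held a KLF core, and these had a median height of 396. The word GGAATG, read by TEAD factors of the Hippo pathway, was in 12.3% of the high non-promoter peaks (flanks 4.7%), and TGTGGTT, read by RUNX factors, in 6.8% (flanks 2.4%). Over all 12248 peaks GGAATG was in 5.61% of centres, close to the flanks (5.17%) and the genome windows (5.46%), and TGTGGTT in 2.74%, with 2.20% of flanks and 2.26% of genome windows. In the high promoter peaks the ETS word CCGGAAG (13.7%, flanks 2.4%) and CCAAT (25.4%, flanks 10.0%) were the frequent ones. A match is a description of the letters and not of a bound factor.

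The 10 highest peaks were shared by promoters and sites well away from them. The highest was in the promoter of Rangap1, the GTPase activator of Ran in nuclear transport (chr15:81560430-81560830, 281 bp upstream of the TSS), with 48 tags in replicate 1 and 174 in replicate 2 and a height of 2304. Its central 100 bp held no KLF core. Upstream of Cttnbp2nl, which encodes a cortactin-binding-protein relative, an intergenic peak 5907 bp from the TSS (chr3:104861771-104862171) had 51 and 173 tags. S100a14, an S100 calcium-binding protein gene, had a peak 1261 bp upstream (chr3:90329310-90329710) with 56 and 188 tags, the largest replicate 2 count of the list. A peak 236.5 kb from A1bg (chr15:60989127-60989527) had 34 and 160 tags. The distance shows how far a nearest gene can lie from a strong peak.

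Promoters took 5 of the 10. The tenth place was a tie at the deposited height of 1629 between the intron peak of Plec, kept here, and the promoter peak of Ech1 (44 and 127 tags), which would have made it 6. Besides Rangap1 these were Ppp1r10, which encodes a nuclear targeting subunit of protein phosphatase 1 (29 and 121 tags), Tcf3, a helix-loop-helix factor gene (27 and 107 tags), Usp31, a deubiquitinase gene (33 and 129 tags), and Kntc1, a kinetochore protein gene (28 and 119 tags). Klhdc8a, a kelch-domain gene, had an intergenic peak 10348 bp upstream with 38 and 146 tags. Plec, which encodes the cytoskeletal linker plectin, had an intron peak 2071 bp downstream of a TSS (chr15:76034480-76034880) with 23 and 82 tags, an AP-1 word and no KLF core. Scaled to 100 M tags, the 10 peaks had 1303 to 3172 tags in replicate 1 and 801 to 1837 in replicate 2. Replicate 1 was the higher in all 10. This was not particular to them. The medians over all merged peaks were 7 tags in replicate 1 and 14 in replicate 2. With 1 tag worth 56.6 in replicate 1 and 9.77 in replicate 2, a peak with these counts also scales higher in replicate 1. No replicate 1 peak held fewer than 4 tags, which sets a floor under its scaled values. All 10 overlapped a merged KLF3 peak, as 95.4% of group 10 did, and the combined KLF3 height at them was 1128 to 1758. The peaks of Cttnbp2nl, S100a14, A1bg, Ppp1r10, Klhdc8a and Kntc1 also overlapped a merged DBD peak, as 18.9% of group 10 did.

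Intron peaks next in height were near Rsbn1 (21 and 118 tags), Prph, the gene of the intermediate filament peripherin (25 and 119 tags), Tuba1a, an alpha-tubulin gene (19 and 87 tags), and E130003G02Rik (33 and 118 tags). The highest peaks outside promoters, introns and intergenic space were near Msh3, a mismatch repair gene (15 and 108 tags), at the end of the paraspeckle RNA gene Neat1 (19 and 74 tags), and at Pramef8 (15 and 92 tags), 4931428F04Rik (10 and 66 tags) and Slc35e4 (13 and 79 tags). The transcript that held a peak was often not that of the gene named. The peak named for Rsbn1 lay in intron 18 of Ptpn22 and that named for E130003G02Rik in intron 19 of Grin1. Of 4163 intron peaks whose transcript could be matched to a symbol, 1111 (26.7%) lay in a gene other than the nearest-TSS gene, and of 384 exon, untranslated or gene-end peaks 153 (39.8%) did.

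The 12248 peaks named 6679 genes. Of these 4297 (64.3%) had 1 peak, 1238 had 2, 735 had 3 or 4, and 409 had 5 or more. The 409 took 24.6% of all peaks. Protein-coding genes took 10326 peaks, and 1705 peaks went to genes of non-coding RNAs. A promoter peak was found at 1005 genes, 13 of which had 2. Only 2525 genes had a peak within 10 kb of their TSS, and 5874 had one within 100 kb.

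The genes with the most peaks lay far from most of them. Lrrc4c, which encodes a netrin-G ligand of synapses, had 24 peaks at a median distance of 731 kb, and only 1 within 100 kb. Dsel, a dermatan sulfate epimerase relative, and Ptprd, a receptor tyrosine phosphatase gene, had 22 each, at medians of 569 and 411 kb. Gm2516 had 20, the protocadherin gene Pcdh9 had 19, and Diap2, Gm597 and the neurexin-family gene Cntnap2 had 18. The adhesion receptor gene Lphn3 and the neurexin-family gene Cntnap5a had 17 each. The median peak heights of these 10 genes were 153 to 224, around or below the median of the list, and none had a promoter peak. Their peaks had median GC contents of 31.2 to 38.4%, and 0 to 2 peaks per gene held a KLF core. Their highest peaks reached 333 to 491, against 1629 and more for the 10 highest of the list.

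A ranking by peaks within 10 kb, chosen after the counts above had been seen, gave other genes. Lmna and Pacsin2 had 5 such peaks each, Plec, Vim and Ahnak 4 each, and Foxo3, Gsg1, Smad7 and Epb4.1 had 3. Lmna encodes the nuclear lamins A and C, Vim the intermediate filament vimentin, Ahnak a very large scaffold protein under the plasma membrane, and Pacsin2 a membrane-bending protein that binds dynamin. The 4 peaks of Vim held 18, 19, 15 and 6 tags in replicate 1 and 51, 88, 67 and 16 in replicate 2, in order along chromosome 2. The highest was in the promoter, 690 bp upstream of the TSS (chr2:13495048-13495448), with both a KLF core and an AP-1 word. The peak 9611 bp downstream was the lowest, at a height of 280 against 755 to 1351 for the others.

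At Plec the peaks held 6, 12, 23 and 8 tags in replicate 1 and 27, 52, 82 and 53 in replicate 2. They lay in exon 16, at the promoter of another transcript, in intron 1, and in the last exon of a neighbouring transcript. The Lmna peaks held 6 to 15 tags in replicate 1 and 30 to 60 in replicate 2, and 4 of the 5 lay in intron 1. The Ahnak peaks held 7 to 16 and 33 to 46 tags, with 3 of 4 in intron 1. A further 3 peaks in intron 5 of Ahnak were listed under its neighbour Scgb1a1, with heights of 377, 617 and 1152. Of the 5 Pacsin2 peaks the promoter peak was the highest (8 and 48 tags), while the 2 in intron 1 had 8 tags in replicate 1 and 12 and 16 in replicate 2 and overlapped DBD peaks in place of KLF3 peaks. Every peak of Plec, Vim, Lmna and Ahnak overlapped a merged KLF3 peak and no DBD peak.

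**Figure D3:**
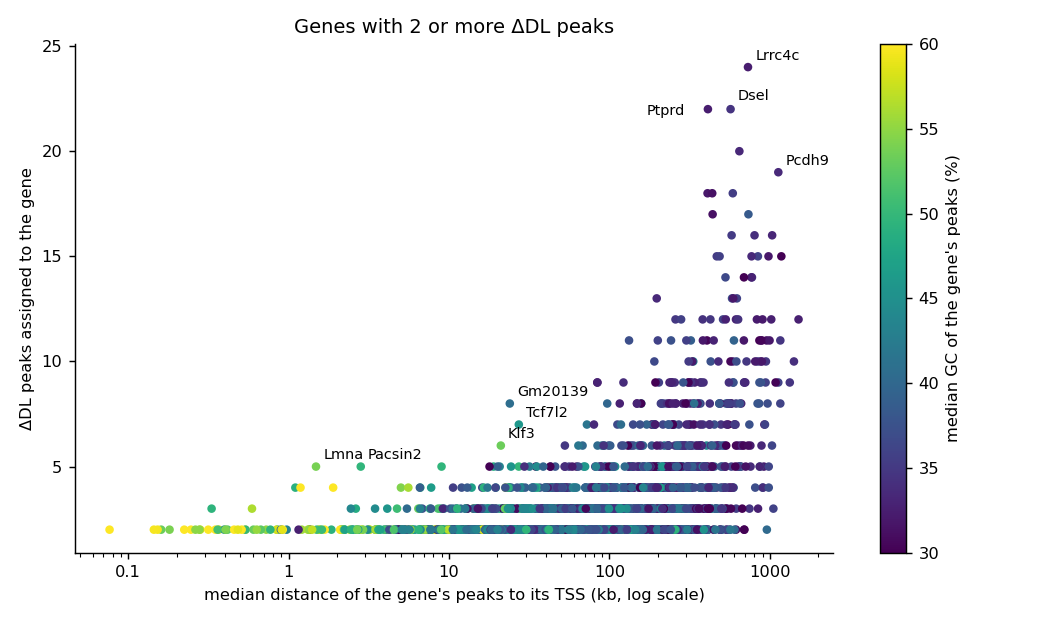
Each point is a gene with 2 or more ΔDL peaks. The x axis is the median distance of its peaks to its TSS in kb on a log scale, the y axis the number of peaks, and the colour the median GC percent of the peaks. The 10 genes with most peaks lie at medians of 409 kb or more, with low GC content, while Lmna and Pacsin2 have 5 peaks each at medians of 1.48 and 2.82 kb.

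Klf3 itself, the locus of the protein studied, had 6 peaks within 100 kb and a median height of 784. Its promoter peak 431 bp upstream of the TSS (chr5:65194131-65194531) had 6 tags in replicate 1 and 30 in replicate 2, and a peak in intron 1 had 11 and 47. Both held a KLF core. Peaks on exon 3 (5 and 62 tags) and exon 5 (6 and 73 tags) held none. The retrovirus carries Klf3 coding sequence, so tags on these exons from the vector and from the locus cannot be told apart. Replicate 2 was above replicate 1 there after scaling, at 606 against 283 and 713 against 340 tags per 100 M. It was also above replicate 1 at the Pacsin2 peak 2816 bp upstream of the TSS, at 645 against 396. A further pair 61.3 and 63.8 kb from the TSS had 11 and 28 tags and 9 and 43 tags.

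**Figure D4:**
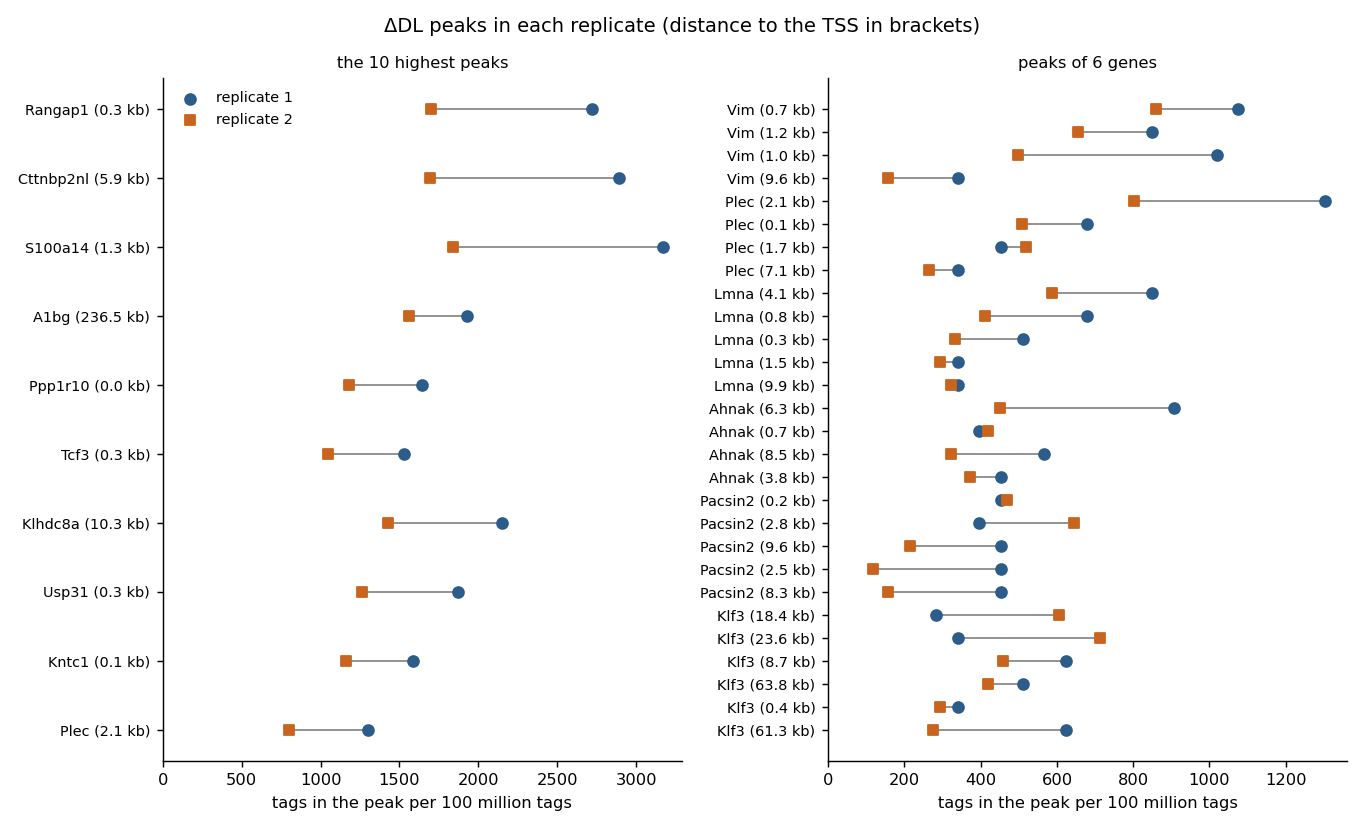
Points give the tags in each peak per 100 M tags, in replicate 1 (circles) and replicate 2 (squares), for the 10 highest peaks and for all peaks of Vim, Plec, Lmna, Ahnak, Pacsin2 and Klf3, with the distance to the TSS in brackets. Replicate 1 lies above replicate 2 at all 10 of the highest peaks, and below it at some of the others, among them the Klf3 exon peaks 18.4 and 23.6 kb from the TSS and the Pacsin2 peak 2816 bp upstream.

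Gene lists were counted against all protein-coding genes. Of 22238 such genes in GENCODE vM1 (mm9), 26.1% had any ΔDL peak, 23.2% had one within 100 kb, 10.3% within 10 kb and 4.28% in the promoter. Genes differ in length and in the space around them, so a share above the background is a description. The median height over all peaks, for reading the lists' heights, was 199.

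Actomyosin and cytoskeleton genes were the list with the largest share near the TSS. Of 36 members 16 had a peak, and 15 (41.7%) had one within 10 kb. Their 29 peaks had a median height of 576, and 21 (72.4%) held a KLF core. In group 10, with a median height of 572, 62.4% of peaks held one. Cfl1, which encodes the actin-severing protein cofilin, had a promoter peak with 19 and 93 tags. Tpm4, a tropomyosin gene, had 2 intron peaks with 8 and 29 tags and 7 and 48 tags. The non-muscle myosin gene Myh9 had a promoter peak (8 and 34 tags) and a distal peak 39.8 kb upstream (13 and 78 tags). The caldesmon gene Cald1 had its peak 34.8 kb into the gene (13 and 71 tags). Actb (13 and 29 tags) and Flna (7 and 33 tags) had theirs in intron 1.

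Adhesion and matrix genes had peaks often, but farther away. In the integrin and focal adhesion list 17 of 27 had a peak, 4 (14.8%) of them within 10 kb and none in a promoter. Of its 33 peaks 7 (21.2%) held a KLF core, against 19.2% of all peaks. The highest was 29 kb upstream of the LIM protein gene Lpp (12 and 58 tags), followed by Cav2, a caveolin gene (16 and 36 tags), and Tns3, a tensin gene (7 and 56 tags). In the collagen and matrix list 21 of 36 had a peak, 10 (27.8%) within 10 kb. Col6a1 had a peak 2518 bp upstream (22 and 63 tags), the collagen gene Col1a2 one in intron 1 (10 and 43 tags) and the matrix protein gene Sparc one 8080 bp upstream (9 and 37 tags). Promoter peaks in this list were at Col6a2 and Ctgf.

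**Figure D5:**
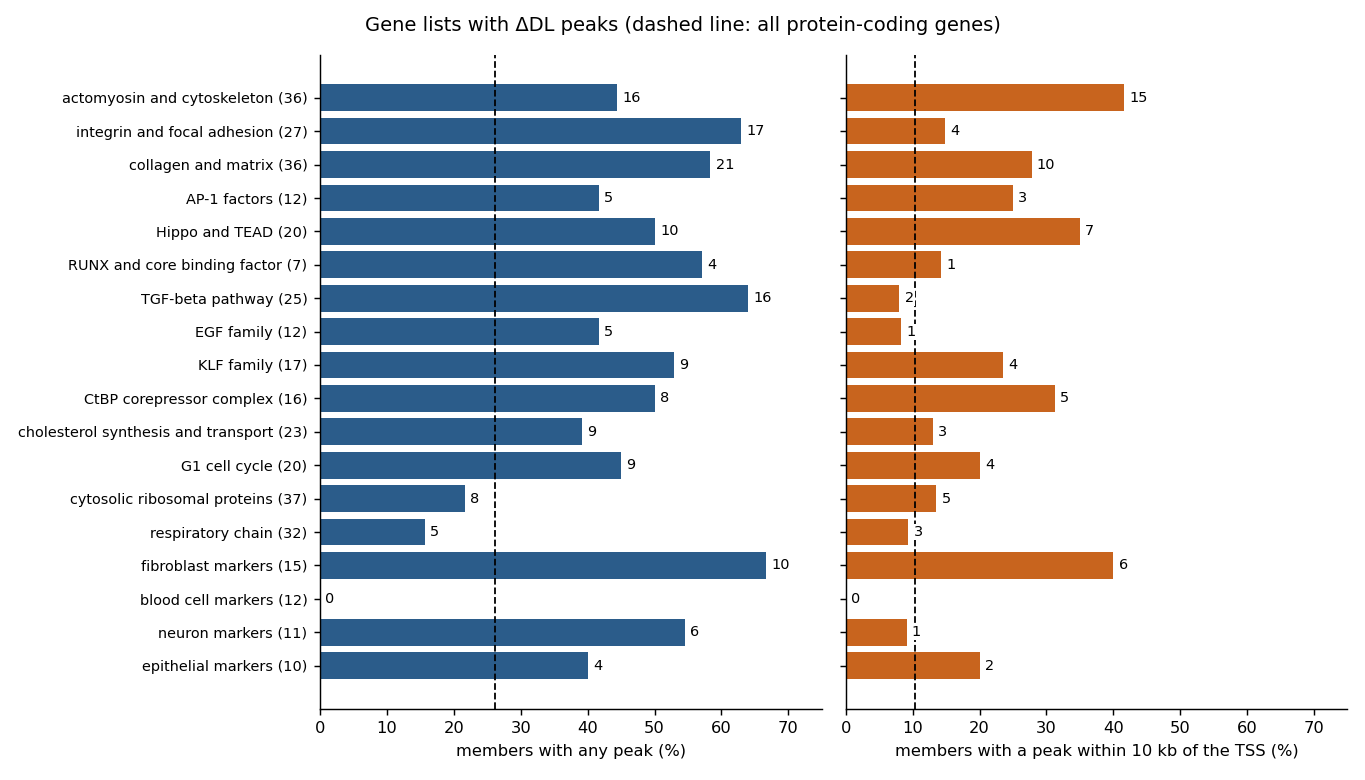
Bars give the percent of each list's members (number in brackets) with any ΔDL peak and with a peak within 10 kb of the TSS, with the number of such members beside each bar. The dashed lines mark all protein-coding genes, at 26.1% and 10.3%; the cytoskeleton list stands at 41.7% within 10 kb and the blood cell list at 0 in both.

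Among regulators, 10 of 20 Hippo and TEAD genes had a peak, 7 (35.0%) within 10 kb. Ankrd1, a target gene of this pathway, had a promoter peak (5 and 36 tags) and a peak 9646 bp upstream (14 and 85 tags). In the TGF-beta pathway 16 of 25 had a peak but only 2 (8.0%) within 10 kb. The receptor gene Tgfbr2 had its highest peak 208 kb away (8 and 60 tags), and the corepressor gene Ski had one in intron 1 (10 and 76 tags). Of 12 genes of AP-1 factors 5 had a peak, with Atf3 41.1 kb upstream (21 and 98 tags) and Fosl1 in its promoter (8 and 20 tags). Of their 8 peaks 7 held a KLF core, against 19.2% of all peaks. Of 7 RUNX and core binding factor genes 4 had a peak, namely Runx1, Runx2, Cbfb and Runx1t1. The highest was in intron 3 of Runx1 (7 and 25 tags). Of 12 EGF family genes 5 had one. The growth factor gene Epgn had 2, at 10.4 and 11 kb, with 21 and 111 tags and 10 and 42 tags.

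In the KLF family 9 of 17 genes had a peak, and 4 (23.5%) had one in the promoter, namely Klf3, Klf8, Klf10 and Klf11. The Klf8 promoter peak had 7 and 26 tags, the Klf10 promoter peak 6 and 17, and the Klf11 promoter peak 7 and 15. Klf6 had a peak 332 kb from its TSS with 13 and 69 tags. Of 16 genes of the CtBP corepressor complex, the partner that ΔDL cannot bind, 8 had a peak, 5 (31.3%) within 10 kb. Their 10 peaks had a median height of 158, below that of the list, and 1 held a KLF core. In the low height groups 1 to 4, 7.2 to 8.0% of peak centres held one. The promoter peak of Wiz, which encodes a zinc finger partner of CtBP, had 5 and 24 tags, and Ctbp2 had a low peak in intron 1 with 7 and 8 tags.

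For any peak the ribosomal list was near the 26.1% background and the respiratory list was lower. For promoter peaks the respiratory list, with 1 gene, was near the background. Of 37 cytosolic ribosomal protein genes 8 (21.6%) had a peak and 4 (10.8%, background 4.28%) a promoter peak, with Rps19 (5 and 33 tags) the highest, and of 32 respiratory chain genes 5 (15.6%) and 1 (3.13%, Atp5b with 7 and 26 tags). Of 23 matched genes of cholesterol synthesis and transport 9 (39.1%) had a peak and 3 (13%) a promoter peak, and the promoters of Srebf2 (11 and 35 tags), Fdft1 (11 and 46 tags) and Fdps (11 and 31 tags) were among them. Of 20 genes of the G1 cell cycle 9 (45%) had a peak, with Mdm2 (12 and 43 tags) the highest and a promoter peak at Cdkn1a (6 and 14 tags).

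Cell type markers were counted in the same way. Fibroblast markers had a peak at 10 of 15 genes, 6 (40.0%) within 10 kb, with Vim and S100a4 (13 and 75 tags) the highest. Neuron markers had one at 6 of 11, of which 1 was within 10 kb and none of the 12 peaks held a KLF core, at a median GC content of 35.3%. Their median height was 163, and in the low height groups 1 to 4 only 7.2 to 8.0% of peak centres held a core. Epithelial markers had one at 4 of 10, with Epcam (9 and 38 tags), Krt19 (7 and 29 tags) and Krt8 (11 and 20 tags) among them. None of 12 blood cell markers had a peak. Peaks near a marker do not measure its expression.

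Repeats were annotated at 2837 peaks (23.2%, 22.4 to 23.9), and at 26.2% of the 10840 intron and intergenic peaks. The annotation gave no repeat to promoter, exon, untranslated or gene-end peaks. The share fell with height, from 27.8% in group 1 to 10.9% in group 10. Promoters made up 0.571% of group 1 and 32.8% of group 10, so part of this fall follows from the annotation. Outside promoters the share in group 10 was 16.2%. It was 23.6% in replicate 1 and 19.2% in replicate 2 (21.4% ± 3.14, SD, n = 2). LINE elements, the autonomous retrotransposons, took 1216, LTR elements 656 and the short SINE elements 460. Low-complexity sequence took 172, of which 142 were AT_rich tracts, DNA transposons 162 and simple repeats 140. The median GC content was 36.2% at LINE, 41.1% at LTR, 41.4% at SINE and 33.7% at low-complexity peaks. A KLF core stood in 7.9% of LINE and 16.5% of SINE peak centres, against 14.4% of intron and intergenic peaks outside repeats. The LINE names with most peaks were Lx8 with 92, Lx9 with 88, L1_Mur3 with 80 and Lx7 with 76.

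Some repeat-borne peaks were high. The highest was in an MLT1B-int LTR element 239 kb from Papss1, a sulfate donor synthase gene (chr3:131466829-131467229), with 13 and 88 tags, a KLF core and an AP-1 word. Other high ones, named by repeat class, were in an L2 LINE near Odf1 (17 and 63 tags), an AT_rich tract near Leprel1 (16 and 52 tags), an L3 LINE in Thpo, the thrombopoietin gene (11 and 97 tags), and an ID4_ SINE near the aquaporin gene Aqp2 (19 and 64 tags). A (TC)n repeat 154 kb from Alg10b had 24 and 61 tags. Of the 5 highest LTR peaks, those near Psmd4 in MT2B (9 and 54 tags) and near the connexin gene Gja1 in MLT2F (7 and 58 tags) also held an AP-1 word. Those near Ctnna1 in RMER6C (12 and 60 tags) and near Vmn2r90 in RLTR25A (7 and 64 tags) held none. Over all LTR peaks the AP-1 word was in 4.88% of centres, close to the 4.38% of intron and intergenic peaks outside repeats. At satellite sequence the merged list had 3 peaks. In replicate 1 the highest peak of all, with 108 tags, was in satellite sequence, whereas the highest of the 9 satellite peaks of replicate 2 had 19 tags.

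Conservation was low over most of the list. The deposited score, the mean over a peak window on a scale from 0 to 1, had a median of 0.04, and 2445 peaks (20%) scored 0. The median rose from 0.03 in group 1 to 0.15 in group 10. It was 0.20 in promoters, 0.05 in introns and 0.03 in intergenic peaks. The 523 peaks with a score over 0.5 held a KLF core in 35.6% of centres and were 19.3% promoter peaks. Peaks that scored 1.00 were in the promoter of the methyl-CpG-binding-domain gene Mbd6 (8 and 27 tags), in intron 1 of the NF-kappaB inhibitor gene Tnfaip3 (5 and 16 tags), and in the last exons of Nova1, a neuronal splicing factor gene (15 and 15 tags), and of Zfp148 beside Slc12a8 (6 and 11 tags). Of these named peaks the Tnfaip3 peak held a KLF core.

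The distance to the TSS ran from within 100 bp, at 516 peaks, to 2109 kb, at a peak near Pcdh17 with 4 and 8 tags. Within 1 kb of a TSS 1195 peaks had a median height of 365 and a median GC content of 59.6%, and 72.5% of their centres held a KLF core. From 1 to 10 kb there were 1507 peaks (median height 208, core 24.1%), from 10 to 100 kb 4979 (195, 16.1%) and beyond 100 kb 4567 (179, 7.0%). Beyond 100 kb the flanks held the core in 8.1%, so no signal at the centre was seen there over all peaks. Of all peaks 47.1% lay upstream of the nearest TSS, but 903 of the 1018 promoter peaks did, with a median position 93.5 bp upstream. CpG islands outside promoters held 77 peaks, 76.6% of which carried a KLF core.

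ΔDL peaks were then grouped by the other lists that held them. Of the 12248, 4704 (38.4%, 37.5 to 39.3) overlapped a merged KLF3 peak and 4438 (36.2%, 35.4 to 37.1) a merged DBD peak by at least 1 bp. The share in KLF3 rose from 0.408% of group 1 to 95.4% of group 10. The share in DBD rose from 7.35% in group 1 to 64.2% in group 8 and was 18.9% in group 10. The 2365 peaks shared with KLF3 alone had a median GC content of 50.9%, 34.8% were in promoters and 60.3% held a KLF core. The 2099 shared with DBD alone (GC 36.7%, promoter 0.524%, core 4.9%) and the 2339 found in all 3 lists (GC 38.4%, promoter 1.67%, core 8.8%) were unlike them, and so were the 5445 in ΔDL alone (GC 38.4%, promoter 2.68%, core 11.3%). Of these 5445, 34.7% overlapped a peak of KLF3 replicate 1 and 8.6% one of KLF3 replicate 2, so absence from a merged list is not absence of tags. The ΔDL, KLF3 and DBD inputs are separate, but the peaks share the genome and its base composition.

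Over the replicate lists ΔDL stood between the other constructs. Promoters took 11.6% ± 6.05 of ΔDL peaks, 25.5% ± 7.74 of KLF3 peaks and 2.20% ± 0.853 of DBD peaks (SD, n = 2 each). The KLF core was in 23.5% ± 9.97, 48.3% ± 13 and 9.14% ± 1.71 of peak centres, and the AP-1 word in 4.98% ± 2.30, 9.86% ± 0.832 and 1.54% ± 0.157. Median GC content was 41.3% ± 3.0, 48.9% ± 5.29 and 37.4% ± 0.353. The ranges of ΔDL and of the other construct did not overlap in any of the 12 comparisons made, including repeat share and distance. Promoter peaks of the merged ΔDL list carried no repeat annotation, so repeat share and promoter share are not independent measures. The exact permutation test over 2 lists against 2 gave p = 0.333 for each (two-sided, Benjamini-Hochberg adjusted 0.333), which is the smallest value that this design can give, so no difference could reach significance. The tag totals behind the scores differed between the lists, from 1.77 to 10.2 M within ΔDL alone, and its part in these differences was not tested.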

How the data were processed

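Anti-V5 ChIP-seq from Klf3-/- MEFs rescued with ΔDL was analysed, with KLF3 and DBD lists for comparison. As the study's methods and the submitters' processing notes give it, the authors aligned reads to mm9 with Bowtie2 (2.0.0 beta release), handled them with SAMtools 0.1.18 and FastQC 0.10.1, called peaks in each replicate against its input with HOMER 4.1, merged replicate peaks that overlapped, and annotated them with RefSeq genes. The deposited peak score is a signal (tags in the peak, scaled to 100 M), and every replicate score was a whole multiple of the worth of 1 tag within 0.1, from which tags and totals were recovered. These totals are not the mapped reads of the libraries. The merged score was the mean of both replicates. The deposited height is the log2 of scaled tags in 400 bp, both replicates pooled by the authors; it is printed here as tags. The deposited GC content is a fraction, printed here as percent, and the deposited conservation is a score from 0 to 1. Input tags per peak were not analysed here. No per-sample column of another series was present (0).

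The peak windows (401 bp) were read from mm9, where GC content matched the deposited values. Words were searched in the central 100 bp and in both windows 400 to 500 bp away. Lists (18, with 368 of 369 genes matched by symbol or by a GRCm38 RefSeq synonym) were counted against protein-coding genes of GENCODE vM1. Transcripts were matched to symbols through the same RefSeq table. No test across features was made on the peak lists. Constructs were compared over replicate lists by the exact permutation test (scipy 1.17.1) in Python 3.11.15 with numpy 2.4.6, pandas 2.3.3, pysam 0.24.0 and matplotlib 3.10.9. Overlap and tag recovery were tested on simulated data. Intervals are 95% Wilson intervals over peaks and cover counting error only, since peaks are not replicates.

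Named peaks were the 10 highest, the 5 highest per region and repeat class, the 5 most conserved, the farthest, up to 4 genes per list, the 10 genes with most peaks and genes the study names. Further peaks were named after their values were seen, namely those of genes ranked by peaks within 10 or 100 kb, of list genes that stand near their TSS, and of satellites. The peaks and lists were chosen with earlier results of these data known. Alternatives covered a stricter score, each replicate list alone, overlap, distance, window and promoter definition. Each sample record covers both replicates. Some named peaks are not reported here.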

Additional observations from a re-analysis of the deposited data

How the results depend on the processing

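Of 92 alternative values for the reported results, 80 kept their direction or stayed within the spread between replicates (for counts, within 1.5 times) and 12 did not. The 80 include the 48 differences with a list left out and the 12 replicate-block means described below, none of which could change sign. With the upper 50% of the list by peak score, 6151 peaks and 4148 genes remained, by construction. Counting only peaks within 10 kb left 2525 genes. The AP-1 share was 6.38% in the central 200 bp. With replicate 2 or replicate 1 alone, peaks ranged from 17206 to 32624, genes from 8150 to 12794, the promoter share from 7.37% to 15.9%, the repeat share from 19.2% to 23.6%, median GC content from 39.2% to 43.4%, the median distance from 29.6 to 52.9 kb, the KLF core share from 16.4% to 30.5% and the AP-1 share from 3.35% to 6.61%. The list of replicate 2 alone, without replicate 1, was the one outside the limit in each of these 8 measures; its cause was not tested. All 48 differences between constructs kept their sign when a replicate list was left out, an alternative added after seeing the data. The ranges did not overlap in any of the 12 comparisons, so no sign could have changed. Requiring 50% overlap of both replicate peaks left 11403 peaks. All 18 gene lists stayed within 1.5 times when peaks beyond 100 kb were dropped. The labels carry no replicate numbers, but the lists do. With that number as a replicate block, also added after seeing the data, the 12 mean differences were the same by construction, for example -13.9 percentage points in promoter share between ΔDL and KLF3. The exact paired permutation test gave p = 0.5 for each, the smallest value 2 pairs allow, and nothing says that equal numbers mark a shared batch. Replicate 1 had 1.77 M tags, and the part of this total in which low peaks were called in both was not tested.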

Other observations

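ΔDL peaks were spread unevenly over the chromosomes. Chromosome 19 held 360 peaks, or 5.87 per Mb, followed by chromosome 3 with 5.43 and chromosome 15 with 5.32 per Mb. Chromosome 7 held 3.38 per Mb, the lowest of the autosomes, and chromosome X 4.0 per Mb. Chromosome Y held 9 peaks in all. The median GC content of the peaks was 43.9% on chromosome 19 and 35.4% on chromosome X. Mappability was not measured.

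Long non-coding and unnamed loci were among the genes with several near peaks. Gm20139 had 8 peaks within 100 kb, the most of any gene, with heights from 205 to 1152; the highest, in intron 3, had 13 tags in replicate 1 and 88 in replicate 2. Tcf7l2, which encodes a transcription factor of the Wnt pathway, had 7, and 2 of these held a KLF core. Foxo3, a forkhead factor gene, had 2 promoter peaks with 7 and 40 tags and 14 and 57 tags, both with a KLF core. These genes were named after their counts were seen.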
